A study of Mus musculus with 9 samples.

Results

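The genes described here encode parts of the motile cilium, the beating hair-like organelle of the ependymal cells that line the brain ventricles, together with genes that mark those cells. A list of 40 genes was looked up by gene name in a table of RNA levels for 38621 genes in the brains of 9 mice, and 39 of the 40 were found. The gene not found under its listed name was Cfap65. RefSeq gives Ccdc108, which the table does hold, as an older name of it, and Ccdc108 was not counted as a member. It was at 0.803 to 1.503 RPKM and was called in none of the comparisons. The mice were male C57BL/6 mice in 3 groups of 3, and brain tissue was the source of the RNA in all of them. The sham mice are labelled untreated, while the study's methods give saline injection for sham mice. The ICH mice received an injection of their own blood into the brain, a model of intracerebral hemorrhage that places clotting blood in the tissue without rupture of a vessel. The feb mice were given febuxostat, an inhibitor of xanthine oxidase, by gavage on the days before the same injection of blood. The dissected region and the time between injection and sampling are not given in the sources used here for these samples, and no group received febuxostat without blood.

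A motile cilium is built on a ring of doublet microtubules around a central pair. Outer and inner dynein arms pull neighboring doublets past each other, radial spokes and the central apparatus time that pulling, and nexin links turn sliding into bending. In the brain the tufts of cilia on ependymal cells move cerebrospinal fluid along the ventricle walls. Foxj1, a forkhead transcription factor, is the main switch for the motile cilia program, and the RFX factors, which bind a promoter element called the X-box, act with it on many cilia genes. Epithelial cells of the choroid plexus also carry cilia, and genes of intraflagellar transport, the traffic that builds all cilia, are active in most cell types of the brain.

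The values were RPKM, that is, reads scaled to the exon length of the gene and to all reads counted in the mouse, and the reads behind them were recovered as whole numbers. Each mouse had between 23065757 and 29538009 reads on genes, so that 3 reads on 1 kb of exon correspond to an RPKM of 0.102 to 0.13. Differences between groups were tested with limma on log2(RPKM + 0.1) over the 29025 genes that reached an RPKM of 0.1 in at least 3 mice, and all 39 motile cilia genes found were among them. A gene was called when its unadjusted p-value was under 0.05 and its fold change was over 2 on that scale, and p-values adjusted by the Benjamini-Hochberg method are over all 29025 genes. The libraries differed in regional content. The summed RPKM of 8 striatal neuron genes was 108 in sham mouse 1 and 214 to 632 in the other 8 mice, and that of 8 cortical and hippocampal genes was 32.4 to 61.5 in sham mice and 65.45 to 144 in the other mice.

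Promoter sequences are shown for the 3 genes that were among the lowest p-values of any comparison and held a match to the X-box or to the forkhead element. RefSeq sequences of GRCm38.p6 covered 33 of the 40 listed genes, and those of Foxj1, Rsph1, Rsph4a, Dnaaf1, Armc4, Cfap54, and Cfap65 were not used here. The 250 bases before each RefSeq start, 41 windows for the 33 genes, were searched on both strands for the X-box, a palindrome-like element of 14 letters, and for the forkhead letters GTAAACA, which read TGTTTAC on the other strand. The X-box search fixed 8 of its 14 letters, which are GT, CC, G, and AAC in that order with 2, 3, and 1 free bases between them. Each sequence runs 5′ to 3′ on the strand of its gene, with the matched X-box letters in capitals. The Cfap44 window was chr16:44394549-44394798, that of Cfap45 was chr1:172520880-172521129, and that of Tekt4 was chr17:25471340-25471589, all on the plus strand.
Cfap44: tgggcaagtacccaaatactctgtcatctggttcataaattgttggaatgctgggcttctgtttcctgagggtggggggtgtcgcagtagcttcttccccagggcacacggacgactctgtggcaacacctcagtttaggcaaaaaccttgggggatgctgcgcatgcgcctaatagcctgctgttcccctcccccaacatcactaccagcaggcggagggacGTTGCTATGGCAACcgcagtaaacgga
Cfap45: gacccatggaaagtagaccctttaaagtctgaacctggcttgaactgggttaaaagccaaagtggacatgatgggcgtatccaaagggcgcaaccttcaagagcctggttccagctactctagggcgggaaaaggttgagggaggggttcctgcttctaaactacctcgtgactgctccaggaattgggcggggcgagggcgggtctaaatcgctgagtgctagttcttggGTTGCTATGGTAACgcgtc
Tekt4: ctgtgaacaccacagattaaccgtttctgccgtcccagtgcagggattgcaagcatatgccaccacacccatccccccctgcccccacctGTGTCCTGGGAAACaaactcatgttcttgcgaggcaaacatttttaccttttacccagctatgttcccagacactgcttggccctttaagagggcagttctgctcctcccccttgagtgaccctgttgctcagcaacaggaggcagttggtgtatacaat
The Tekt4 match reads in the direction of the gene, and those of Cfap44 and Cfap45 read in the opposite direction. The match began 27 bases before the start in Cfap44, 19 bases before it in Cfap45, and 160 bases before it in Tekt4. The deposited position of Cfap45 starts at base 172520801, so its window lies inside the gene as the authors counted it.

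An X-box match was present in 7 of the 33 genes, or 21.2%, and in 560 of all 27025 genes with a promoter sequence, or 2.07%. A gene with several windows was counted when any of them held a match. The other genes with it were Iqca, Spag16, Hydin, and Pifo. In Hydin the match was GTTGCTGTGGCAAC, 21 bases before the start, and in Spag16 it was GTTGCCGTAGTAAC, 103 bases before it. The forkhead letters were found in Mlf1, Cfap43, and Ak7, which is 3 of 33 genes, or 9.09%, against 3.54% of all genes with a promoter sequence. No gene of the 33 held both elements, and 10 of 33 held either one, against 5.52% of all genes with a promoter sequence. The windows that held the matches of Cfap43 and Pifo lie inside the gene as the authors counted it, like that of Cfap45. The other Pifo window held no match. Among 74 other motile cilia genes with a promoter sequence 12.2% held an X-box match, and among 31 genes of intraflagellar transport and the BBSome, a cargo complex of the cilium, 12.9% did. A match describes letters only and is not evidence of binding.

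The motile cilia genes were expressed at low levels in these brain samples. Their mean RPKM over the 9 mice ran from 0.392 for Tmem212 to 7.64 for Rsph1, with a median of 1.21 beside 1.79 for all genes tested. The mean was above 1 for 20 of them and above 3 for 6. The number of reads behind a value went from 3 reads for Tmem212 in feb mouse 1 to 1009 reads for Ccdc39, so the long or abundant genes were measured more precisely. Between the highest and the lowest mouse the ratio ran from 1.42 for Rsph1 to 5.90 for Tekt4, with a median of 1.94, close to the median of 1.89 over all genes. The median coefficient of variation within a group was 19.6% for sham, 13.4% for ICH, and 24.3% for feb mice.

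The defining ependymal markers on the list were present in each library. Foxj1 (chr11:116330704-116335399, minus strand) had an RPKM of 5.54, 3.02, and 3.77 in sham mice 1 to 3, while ICH mice had 3.58, 4.13, and 4.09 and feb mice 4.44, 4.30, and 3.04. The highest and the lowest of these 9 values were both from sham mice, and the 3 groups overlapped. Ccdc153 (chr9:44240676-44247306, plus strand), a coiled-coil gene used as an ependymal marker, was at 4.52, 2.59, and 3.18 in sham mice, while ICH mice had 3.33, 3.03, and 4.99 and feb mice 6.33, 4.24, and 2.81. Its highest value was in feb mouse 1, and the groups overlapped as well. Tmem212, a membrane protein gene that also marks ependymal cells, was at 0.426, 0.374, and 0.348 in sham mice, while ICH mice had 0.399, 0.425, and 0.587 and feb mice 0.158, 0.387, and 0.424. It rested on 3 to 11 reads per mouse, and only feb mouse 1 fell below the range of the other mice.

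**Figure D1:**
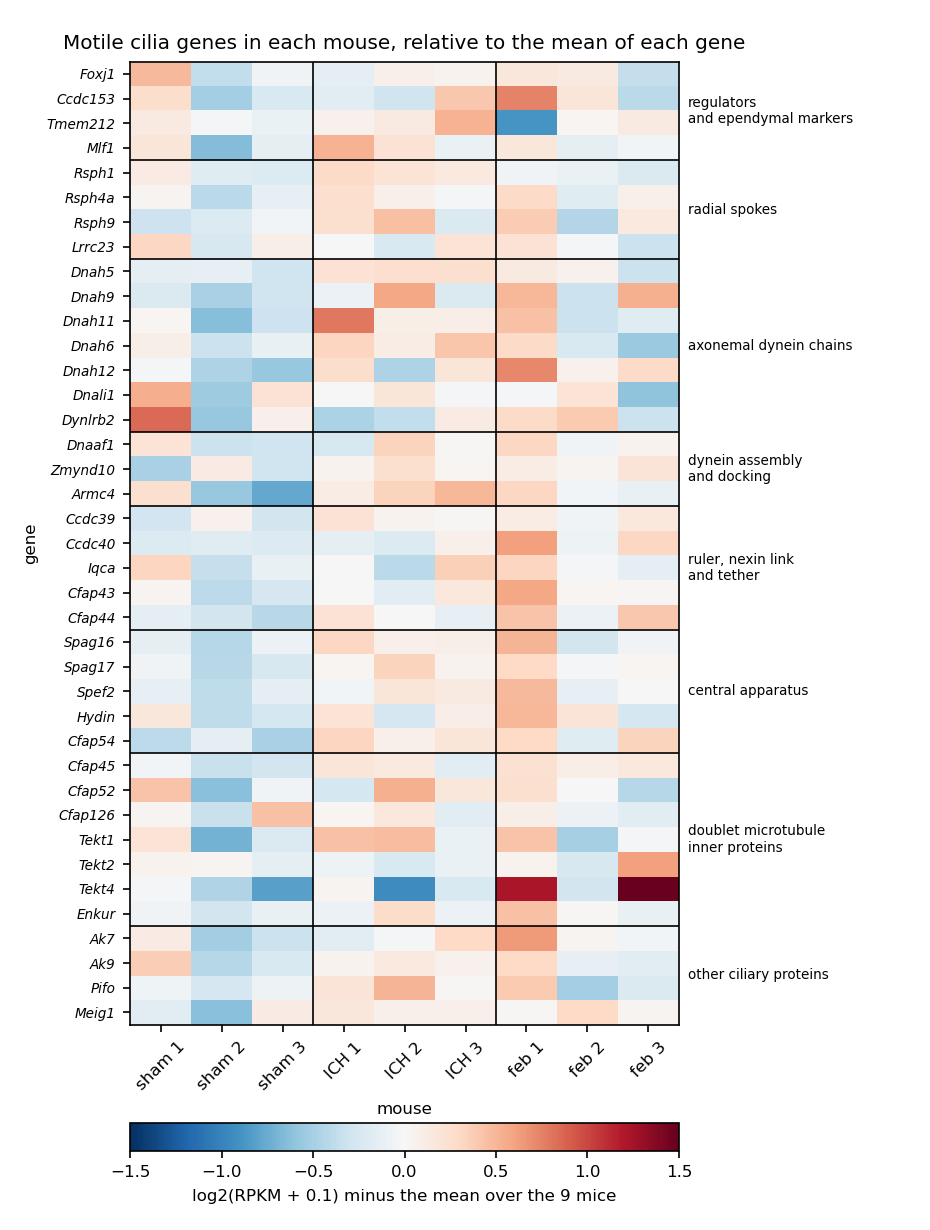
Heatmap of 39 motile cilia genes (rows, grouped by role) in the 9 mice (columns), colored by log2(RPKM + 0.1) minus the mean of that gene over the 9 mice. Sham mouse 2 is mostly blue and feb mouse 1 mostly red across roles, the 3 ICH mice are mostly pale red, and the darkest cells are those of Tekt4 in feb mice 1 and 3.

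The comparison of ICH with sham mice asks whether an injection of blood altered these genes. None of the 39 was called, while 2.53% of all genes were, 1.46% in the higher direction. Most differed a little in the same direction, with 33 of 39, or 84.6%, above 0 in ICH mice, beside 61.1% of all genes. The median log2 difference was 0.27 for the motile cilia genes and 0.08 for all genes. An unadjusted p under 0.05 was found for 4 of the 39, or 10.3%, beside 12.3% of all genes, and all 4 were higher in ICH mice, a direction in which 7.88% of all genes had such a p. None passed the threshold after adjustment, which 0.0241% of all genes did. In this bulk tissue a larger number of ciliated cells in the sample and more RNA per cell cannot be told apart.

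Of the 4 radial spoke genes Rsph1 (chr17:31255019-31277356, minus strand), which encodes a spoke head protein, had the lowest p. It had an RPKM of 8.26, 6.67, and 6.57 in sham mice and 9.26, 8.75, and 8.40 in ICH mice, and every ICH mouse was above every sham mouse. The log2 difference was 0.30 with a standard error of 0.11 (adjusted p = 0.366 by limma). Rsph9, another spoke head gene, was at 3.51, 3.77, and 4.24 in sham and 5.20, 6.03, and 3.77 in ICH mice, and the groups overlapped because ICH mouse 3 lay within the sham range. Rsph4a had a log2 difference of 0.26, and Lrrc23, a spoke protein, one of -0.06, neither past the threshold.

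Among the 7 dynein chain genes 5 had higher values in ICH mice, with a median log2 difference of 0.40. Dnah5 (chr15:28203752-28472045, plus strand), a heavy chain of the outer arm, was at 0.726, 0.732, and 0.637 in sham and 0.956, 0.978, and 0.97 in ICH mice. The ICH mice were nearly equal and lay above all sham mice, and the log2 difference was 0.42 with a standard error of 0.18 (adjusted p = 0.398 by limma). Dnah11, another heavy chain of the outer arm, and Dnah6, an inner arm heavy chain, did not overlap either, with log2 differences of 0.64 and 0.40 that missed the threshold. The 2 chains below 0 were the small ones, Dnali1 at -0.02 and Dynlrb2, a light chain shared with cytoplasmic dynein, at -0.36. All 3 genes of dynein assembly and docking were above 0, and Armc4, which docks the outer arms to the doublet, had a log2 difference of 0.68 (adjusted p = 0.405 by limma) although the groups overlapped.

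The 5 central apparatus genes were all higher in ICH mice, by 0.17 for Hydin to 0.54 for Cfap54 on the log2 scale. Cfap54 (chr10:92775619-93081618, minus strand) was at 0.918, 1.11, and 0.859 in sham and 1.58, 1.31, and 1.43 in ICH mice, without overlap. Its difference of 0.54 had a standard error of 0.19 and the lowest p of the motile cilia genes in this comparison (adjusted p = 0.363 by limma). Spag16, Spag17, and Spef2 did not overlap between the groups either, but missed the threshold. The 5 genes of the molecular ruler, the nexin link, and the tether, which set the spacing of arms and spokes and hold the inner dyneins, lay between 0.03 for Iqca and 0.31 for Cfap44. Ccdc39 (chr3:33812362-33844310, minus strand), a subunit of the ruler, was at 3.85, 4.92, and 3.87 in sham mice, while ICH mice had 5.499, 4.91, and 4.78 and feb mice 5.12, 4.53, and 5.28. Sham mouse 2 lay inside the ICH range, and the log2 difference was 0.27 with a standard error of 0.12 (adjusted p = 0.418 by limma).

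The 7 proteins of the doublet lumen had a median of 0.18, and the 4 remaining ciliary genes, which are the adenylate kinases Ak7 and Ak9 with Pifo and Meig1, a median of 0.30. Across all roles 10 of 39 genes, or 25.6%, were higher in every ICH mouse than in every sham mouse, beside 13.2% of all genes, and 0 were lower in every ICH mouse, beside 6.22%. The median difference and the counts above 0 and with a p under 0.05 changed with the scaling and with single mice. The counts of genes without overlap were not repeated in these settings. When each sample was given the same median, the median difference was 0.17 for the motile cilia genes and -0.03 for all genes, 31 of 39 were above 0, and 1 instead of 4 had a p under 0.05. That count was 0 without ICH mouse 1, 2 without ICH mouse 2, and 1 without sham mouse 3. Without sham mouse 1, the mouse low in striatal genes, 37 of 39 were above 0 and the median difference was 0.36.

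**Figure D2:**
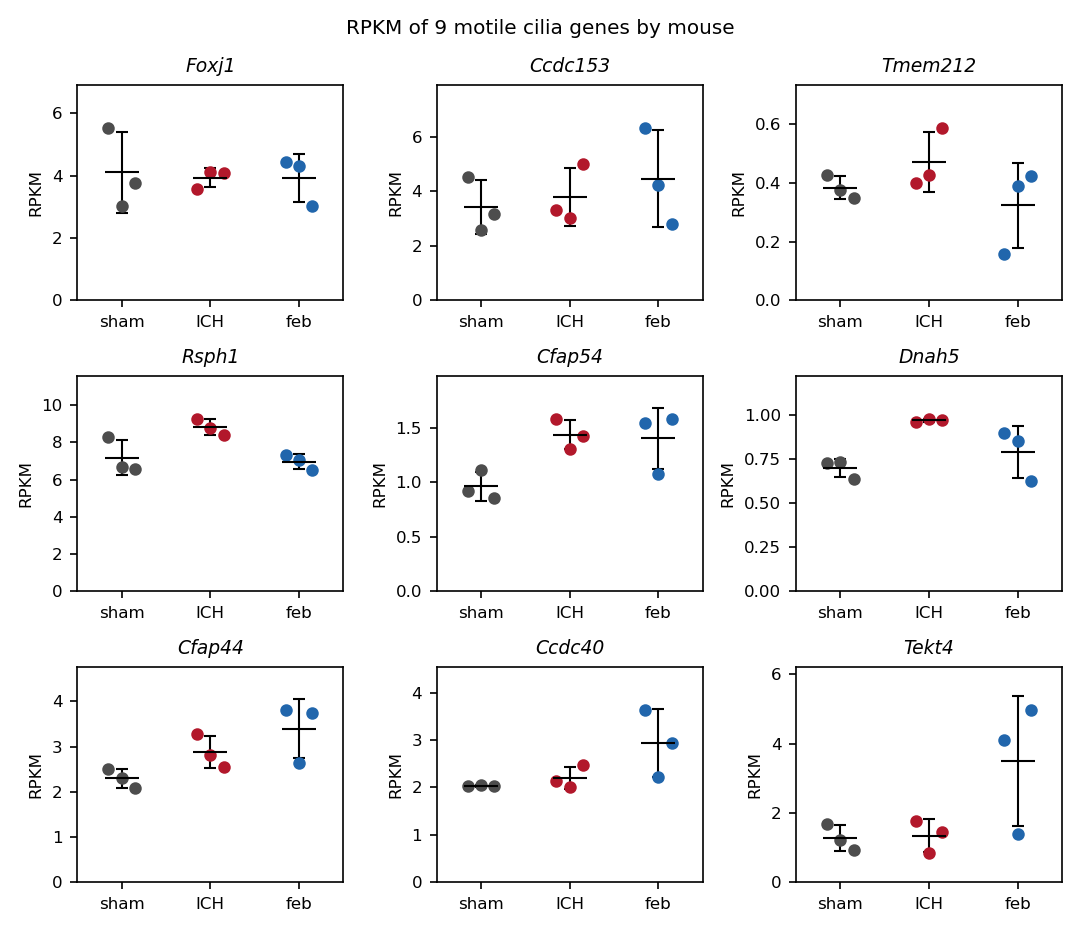
RPKM (linear axis from 0) of 9 motile cilia genes in each mouse by group, with each point a mouse, the long line the mean, and the bar 1 SD either side (n = 3). The ICH points of Rsph1, Cfap54, and Dnah5 lie above all sham points, and for Tekt4 feb mice 1 and 3 stand above the other 7 mice.

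The comparison of feb with ICH mice asks whether febuxostat given before the blood altered these genes. They were spread evenly around no difference, with 18 of 39 above 0 and a median log2 difference of -0.02, beside 47.8% and -0.01 for all genes. Only Tekt4 was called, or 1 of 39, beside 2.43% of all genes and 1.38% in the higher direction. An unadjusted p under 0.05 was found for Tekt4, higher in feb mice, and Rsph1, lower in feb mice, while 11.1% of all genes had one, 4.9% in the higher direction. None passed after adjustment, beside 0.00689% of all genes, and the lowest adjusted p was 0.338, for Rsph1.

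Rsph1 was at 7.30, 7.04, and 6.52 in feb mice, all below the 3 ICH mice and within or just under the sham range. The log2 difference from ICH mice was -0.34 with a standard error of 0.11 (adjusted p = 0.338 by limma), and that from sham mice was -0.04, with a 95% interval of -0.28 to 0.21. Dnah5 was at 0.894, 0.852, and 0.624 in feb mice, again all below the ICH mice, but its difference of -0.28 did not pass (adjusted p = 0.586 by limma). These were the 2 genes, of 39, lower in every feb mouse than in every ICH mouse, a pattern seen in 10.1% of all genes, and 0 were higher in every feb mouse, beside 7.04%. All 4 radial spoke genes had differences below 0, and apart from Rsph1 they lay between -0.14 for Rsph9 and -0.04 for Lrrc23 and Rsph4a. By role, the median log2 difference ran from -0.19 for the dynein chains to 0.21 for the ruler, nexin link, and tether genes, and the central apparatus genes lay between -0.10 and 0.13. Rsph9 was at 5.73, 3.19, and 4.84 in feb mice, a range that took in all ICH values except that of ICH mouse 2.

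Ccdc40 (chr11:119228572-119265236, plus strand), the partner of Ccdc39 in the ruler, had the third lowest p in this comparison. It was at 2.13, 2.02, and 2.47 in ICH and 3.64, 2.21, and 2.94 in feb mice. Feb mouse 2 lay among the ICH mice, and the log2 difference was 0.37 with a standard error of 0.18 (adjusted p = 0.474 by limma). Foxj1 differed by -0.02, with a 95% interval of -0.53 to 0.49, Ccdc153 by 0.19, with an interval of -0.54 to 0.92, and Tmem212 by -0.48, with an interval of -1.18 to 0.21. The median of the motile cilia genes was -0.12 without feb mouse 1, with 11 of 39 above 0, and 0.07 without feb mouse 2, with 23 of 39 above 0.

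Tekt4 (chr17:25471590-25476594, plus strand), a tektin that runs along the inside of doublet microtubules, was the gene with the largest range. Its RPKM was 1.68, 1.22, and 0.929 in sham mice, while ICH mice had 1.76, 0.844, and 1.45 and feb mice 4.12, 1.40, and 4.98. Feb mice 1 and 3 stood above the other 7 mice, and feb mouse 2 lay among the sham and ICH mice, so the groups overlapped. Tekt4 was higher in feb than in ICH mice by 1.19 on the log2 scale with a standard error of 0.47 (adjusted p = 0.410 by limma), and higher than in sham mice by 1.24 (adjusted p = 0.565). Between ICH and sham mice its difference was 0.05, with a 95% interval of -1.01 to 1.11.

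The call of Tekt4 was lost when any of several single mice was left out. Against ICH mice it was lost without feb mouse 1, feb mouse 3, ICH mouse 2, or ICH mouse 3, where the difference was 0.98, 0.85, 0.91, and 1.26. Against sham mice it was lost without feb mouse 1, feb mouse 3, sham mouse 2, or sham mouse 3, where the difference was 1.04, 0.90, 1.23, and 1.05. The other 2 tektin genes on the list did not share its pattern, with log2 differences between feb and ICH mice of -0.30 for Tekt1 and 0.28 for Tekt2. Genes of the floor of the third ventricle were also high in feb mice 1 and 3. Rax, a tanycyte transcription factor, was at 0.272, 0, and 0.260 in feb mice and at most 0.0489 in the other mice, and Agrp, a peptide gene of the arcuate nucleus picked after its values were seen, was at 18.01, 3.95, and 12.2 in feb mice and 1.501 to 3.76 in the other mice. Over all 8 tanycyte genes the summed RPKM was 21.2 to 31.4 for feb mice, 23.85 to 28.96 for ICH mice, and 15.04 to 24.6 for sham mice, with Rax and Gpr50 at 0 in some mice, and its part in the Tekt4 result was not tested.

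**Figure D3:**
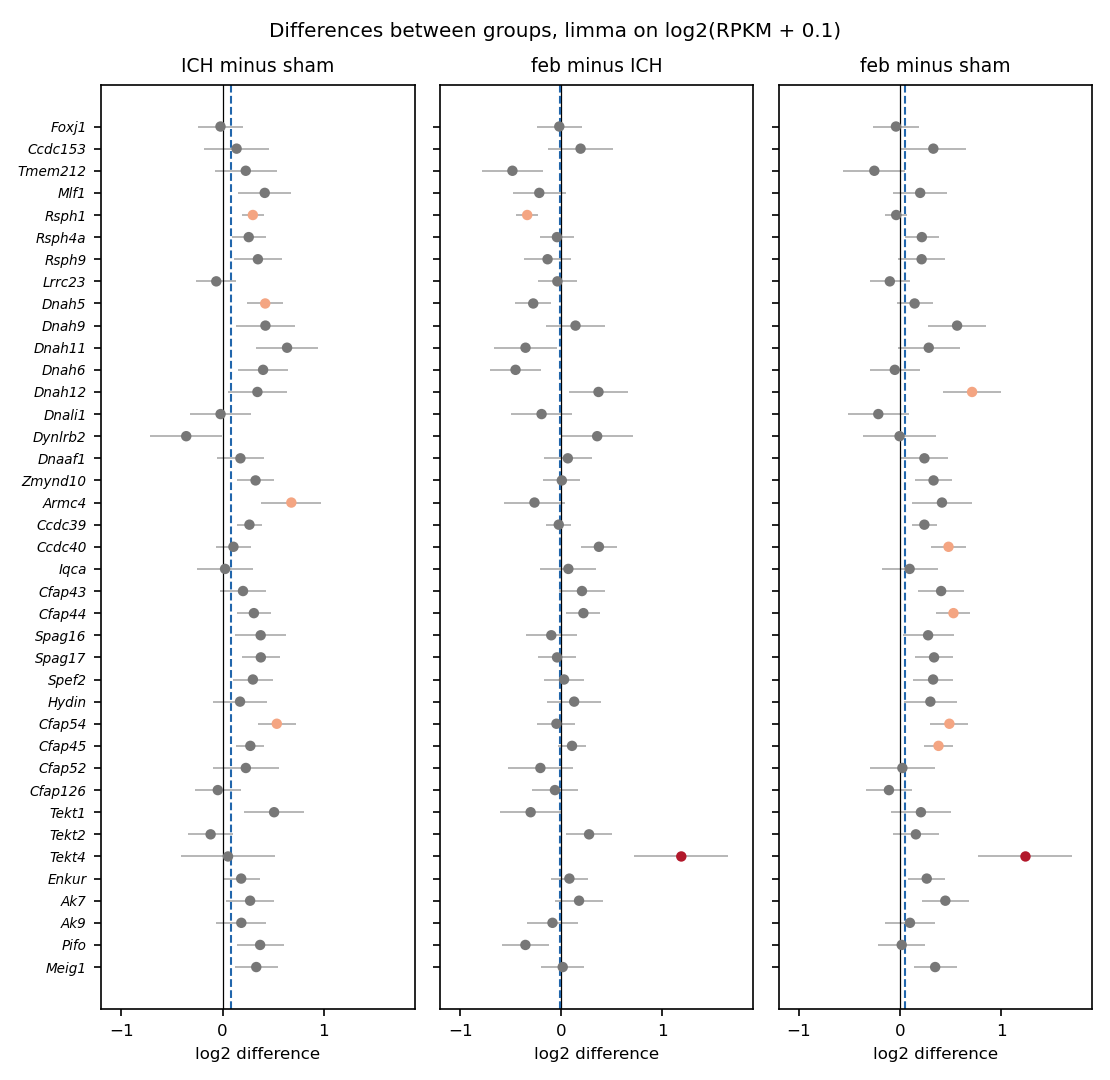
Log2 differences between groups (x axis) for 39 motile cilia genes, with points for the limma estimate and bars for 1 standard error. Red marks a called gene, orange an unadjusted p under 0.05, and the dashed blue line the median of all genes tested. Most points lie to the right of the dashed line in the left and right panels and on both sides in the middle panel, where Tekt4 is the only red point.

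The comparison of feb with sham mice shares its samples with both comparisons above and is not independent of them. Again most of the genes were somewhat higher than in sham mice, with 31 of 39 above 0, or 79.5%, beside 58.7% of all genes, and a median log2 difference of 0.24, beside 0.05 for all genes. Tekt4 alone was called, which is 1 of 39, beside 2.2% of all genes and 1.59% in the higher direction. An unadjusted p under 0.05 was found for 6 of the 39, or 15.4%, beside 8.54% of all genes. None passed after adjustment, beside 0.00345% of all genes. All 6 were higher in feb mice, beside 5.63% of all genes, namely Cfap44, Cfap45, Ccdc40, Tekt4, Cfap54, and the inner arm heavy chain Dnah12.

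The lowest p was that of Cfap44 (chr16:44394796-44482428, plus strand), which ties the inner dyneins to the doublet. It was at 2.52, 2.30, and 2.09 in sham mice, while ICH mice had 3.27, 2.82, and 2.56 and feb mice 3.82, 2.64, and 3.74. The sham mice were below all others. The log2 difference from sham mice was 0.53 with a standard error of 0.17 (adjusted p = 0.565 by limma) in feb mice, and 0.31 (adjusted p = 0.455) in ICH mice. Cfap45 (chr1:172520801-172545870, plus strand), a protein of the doublet lumen, was at 2.04, 1.65, and 1.73 in sham mice, while ICH mice had 2.40, 2.35, and 1.89 and feb mice 2.49, 2.28, and 2.37. The feb mice lay above all sham mice, by 0.38 on the log2 scale with a standard error of 0.14 (adjusted p = 0.565 by limma).

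Ccdc40 was at 2.02, 2.05, and 2.02 in sham mice, nearly equal values, and the 3 feb mice were above them. The log2 difference was 0.48 with a standard error of 0.18 (adjusted p = 0.565 by limma). Cfap54 was at 1.55, 1.08, and 1.58 in feb mice, where feb mouse 2 lay within the sham range, and its difference from sham mice was 0.49. Of 39 genes 5, or 12.8%, were higher in every feb mouse than in every sham mouse, beside 7.78% of all genes, and 0 were lower in every feb mouse, beside 4.9%. By role, all 5 central apparatus genes were above 0, from 0.28 for Spag16 to 0.49 for Cfap54, as were all 5 ruler, nexin link, and tether genes, from 0.10 for Iqca to 0.53 for Cfap44, while the radial spoke genes had a median of 0.09. Foxj1 differed by -0.04 from sham mice, with a 95% interval of -0.55 to 0.47.

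The median difference and the number of genes with a p under 0.05 leaned on feb mouse 1. Without it the median difference from sham mice was 0.10, beside 0.05 for all genes, and 1 of the 39 instead of 6 had a p under 0.05. That count was 2 without feb mouse 3, 2 without sham mouse 3, and 2 when samples were given the same median, a scaling that put the median at 0.13 for the motile cilia genes and -0.06 for all genes. Without sham mouse 1 the median was 0.36 and 37 of 39 were above 0.

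In the sham group the motile cilia genes moved largely together from mouse to mouse, and in the feb group most were highest in mouse 1. Sham mouse 1 had the highest value of its group for 30 of the 39 genes, while it was highest for 32.2% of all genes, and sham mouse 2 had the lowest value for 26, while it was lowest for 34.1%. Both held at once for 23 of the 39 genes, from Foxj1 and the dynein chains Dnah6, Dnah9, and Dnah11 to Hydin, Tekt1, and Pifo, and for 21.4% of all genes. As a ratio, the widest such gap was that of Dynlrb2, with an RPKM of 3.47, 1.24, and 1.98 in the sham mice. Feb mouse 1 was the highest of its group for 29 of 39 genes, beside 27.0% of all genes. In the ICH group the highest value was in mouse 1 for 14 genes, in mouse 2 for 15, and in mouse 3 for 10, without a leading mouse. The mean log2 level over the 39 genes was 0.58, 0.16, and 0.32 for the sham mice, while ICH mice had 0.61, 0.59, and 0.60 and feb mice 0.83, 0.45, and 0.52. The ICH mice were the most alike, and the mean of sham mouse 1 was nearer to theirs than to those of the other sham mice.

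Other genes of the motile cilium, 90 genes listed by role with the values of these data already known, were tested in the same fit. In the comparison of ICH with sham mice 67 of the 85 tested were above 0, beside 61.1% of all genes, with a median of 0.20. An unadjusted p under 0.05 was found for 16 in the higher direction, beside 7.88% of all genes, and for 1 in the lower direction. Only Sntn, a gene of the cilium tip, was called, beside 2.53% of all genes. Sntn was at 0.683, 0.309, and 0.172 in sham mice, while ICH mice had 1.02, 0.951, and 0.801 and feb mice 1.22, 0.703, and 0.699, with a log2 difference of 1.20 between ICH and sham mice (adjusted p = 0.347 by limma). In the comparison of feb with ICH mice the median was -0.03, and 2 genes had a p under 0.05 in each direction with 0 called. In that of feb with sham mice 70 of 85 were above 0, beside 58.7% of all genes, with a median of 0.17. A p under 0.05 was found for 8, all higher, beside 5.63% of all genes. Fam216b and Sntn were called, at 1.01 and 1.09 on the log2 scale, beside 2.2% of all genes. The 36 genes of intraflagellar transport and the BBSome had medians of 0.10, -0.04, and 0.05 in the same order, with 0 called in any of them at the limma threshold. An unadjusted p under 0.05 alone was found for 3, 4, and 2 of them, beside 12.3%, 11.1%, and 8.54% of all genes. Of these, 2, 3, and 1 were in the lower direction.

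Cell types near the ventricle were compared by their own genes. Of 12 ependymal genes outside the cilium 0 were called in any comparison. A p under 0.05 was found for Nfia between feb and ICH mice, beside 11.1% of all genes. Between feb and sham mice it was found for Aqp4, Pltp, and S100b, beside 8.54% of all genes, and all 4 differences were lower in feb mice. Over the 12 genes the median log2 difference was -0.22 and -0.09 in these comparisons, with 2 and 3 genes above 0. Their summed RPKM was 197 to 282 for sham, 208 to 253 for ICH, and 168 to 197 for feb mice. Gja1, a gap junction gene that astrocytes share, had the highest level, so the sum does not measure ependymal cells alone. The largest means in feb mice were 57.6 for Gja1, 41.1 for S100b, and 23.96 for Aqp4. Genes of the choroid plexus, the epithelium that secretes cerebrospinal fluid, took another course than the motile cilia genes in feb mice only. Between ICH and sham mice 12 of the 14 choroid plexus genes were above 0, beside 61.1% of all genes, and 0 were called. Their median log2 difference there was 0.27, the same as that of the motile cilia genes. All 14 were lower in every feb mouse than in every ICH mouse, beside 10.1% of all genes. Of them 10 were called, beside 2.43% of all genes, and none passed after adjustment (lowest adjusted p = 0.0832 by limma). Their median log2 difference was -2.21 while that of the motile cilia genes was -0.02. Ttr, the transthyretin gene and the most abundant of them, was at 1005, 350, and 817 in sham mice, while ICH mice had 808, 938, and 437 and feb mice 24.2, 50.4, and 78.1. Feb mouse 1 thus had the lowest Ttr and the highest mean level of motile cilia genes of the 9 mice. Both were highest in mouse 1 and lowest in mouse 2 of the sham group, but not of the ICH group, where mouse 2 had the highest Ttr and the lowest of 3 nearly equal mean levels of motile cilia genes.

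**Figure D4:**
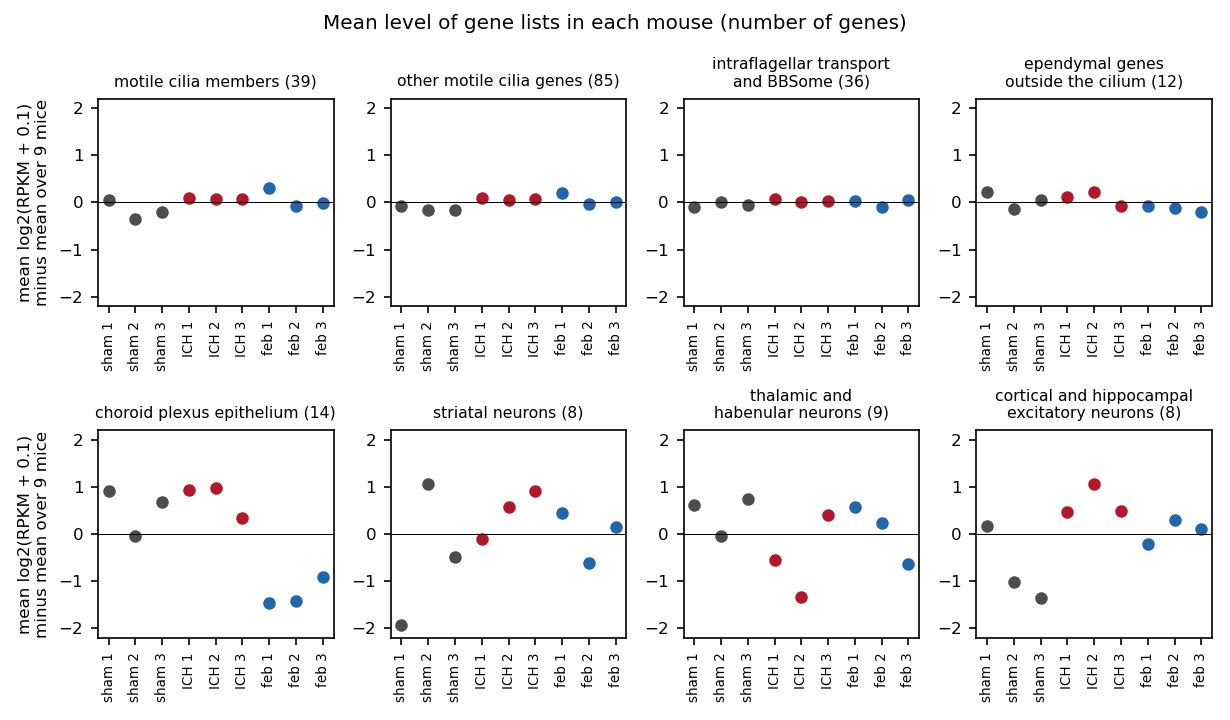
Mean log2(RPKM + 0.1) of 8 gene lists in each mouse, relative to the mean over the 9 mice (y axis, same scale in each panel), with the number of genes in parentheses and a point per mouse (gray sham, red ICH, blue feb). The motile cilia panels stay within a narrow band, the choroid plexus genes are low in all 3 feb mice, and the striatal genes are lowest in sham mouse 1.

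Genes of neurons and of other cell types near the ventricle were read in the same way. Between ICH and sham mice 6 of 8 cortical and hippocampal genes were called higher, beside 1.46% of all genes. The 8 striatal genes had a median difference of 0.93 with 0 called (0 also at an unadjusted p under 0.05). In feb mice 3 of the cortical and hippocampal genes were called lower than in ICH mice. Against sham mice 2 of that list were called higher, and 0 striatal genes were called in either comparison. In either direction 2.53% of all genes were called between ICH and sham, 2.43% between feb and ICH, and 2.2% between feb and sham mice. Of 9 thalamic and habenular genes, with summed RPKM of 161 to 267 in sham and 55.9 to 195 in ICH mice, only Tcf7l2 was called, lower in ICH mice. The 8 neuroblast genes of the subventricular zone, which lies under the ependyma, had a summed RPKM of 10.5 to 22.1 in sham and 18.2 to 32.5 in ICH mice and a median difference of 0.64 with 0 called. Meningeal fibroblast genes were at a summed RPKM of 7.24 to 22.6 for sham, 8.44 to 21.5 for ICH, and 5.44 to 11.5 for feb mice. All 8 had log2 differences below 0 in feb mice, with a median of -0.78 against ICH and -0.60 against sham mice. The collagen gene Col3a1 was called in both of these comparisons and Col1a1 against sham mice alone, and both were named after their values were seen. No gene of the neuron, neuroblast, or meningeal lists passed after adjustment in any comparison. The most abundant genes of these lists, by mean RPKM over the 9 mice, were Slc17a7 (30.2) for cortex and hippocampus, Penk (186) for striatum, Calb2 (67.5) for thalamus and habenula, Sp9 (5.58) for neuroblasts, and Aldh1a2 (3.44) for meninges, and Dio2 (8.18) led the tanycyte list. The part of these regional differences in the levels of the motile cilia genes was not tested.

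Some of the values carry a limit from neighboring genes. Exons of Tekt2, Dnaaf1, Ccdc39, and Zmynd10 overlap a gene on the opposite strand over 20.8%, 20.7%, 16.9%, and 10.1% of their length, and whether counting used the strand is not given in the sources used here. For Ccdc39 that neighbor was Ttc14, at a mean RPKM of 8.79 beside 4.75 for Ccdc39 itself.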

How the data were processed

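The authors depleted rRNA, prepared stranded libraries whose molecules carried UMIs, trimmed reads with Trimmomatic 0.36, built a consensus read per UMI group, aligned to GRCm 38, counted with featureCounts (Subread 1.5.1), tested with edgeR 3.12.1, and deposited RPKM values for 38621 genes. The annotation release and the handling of strand and of reads that match several genes are not given in the sources used here. In each sample 100% of the values were whole reads within 0.02 of a read, which gave each library's depth. The members and gene lists were chosen with earlier results of these data known. Mice of a group differed by more than counting noise (chi-square per gene of 13.9 to 48.5), and all 9 libraries were kept.

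The test was limma 3.58.1 in R 4.3.3 (lmFit and eBayes with trend) on log2(RPKM + 0.1), with all 9 samples in 1 fit, no block, and a filter of 0.1 RPKM in at least 3 samples. It was first run on simulated data drawn without regional differences between mice, so that run does not show how the test behaves on these data. With 3 mice against 3 an exact permutation test of 1 gene cannot go below 0.1 (two-sided). Genes given in every mouse were those called in any comparison, the 3 lowest p-values of each comparison, the 5 highest means, and Foxj1, Ccdc153, and Tmem212. From the other lists the genes called among the motile cilia genes and the most abundant gene of each list are named. Dynlrb2, Agrp, Rax, Tcf7l2, Ttc14, Nfia, Aqp4, Pltp, and S100b were named after their values were seen. Alternatives were pseudocounts of 1 and 0.01, no filter, a minimum RPKM of 1, equal medians, quantile normalization, 2 groups per fit, no trend, a replicate block, p without the fold limit, voom on the recovered reads, and each mouse left out. Tables were made with Python 3.11.15, pandas 2.3.3, and matplotlib 3.10.9.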

Additional observations from a re-analysis of the deposited data

How the results depend on the processing

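The number of motile cilia genes called in the comparisons of ICH with sham, feb with ICH, and feb with sham mice was 0, 1, and 1. With the p-value alone it was 4, 2, and 6. A pseudocount of 1 gave 0 in both feb comparisons, and a fit of only the 2 groups gave 0 for feb with ICH. Leaving out 1 mouse gave 0 to 0, 0 to 1, and 0 to 1. The same settings over all genes gave between 91 calls (pseudocount 1, feb with sham) and 1288 calls (ICH with sham without sham mouse 2), beside 735, 706, and 639. An RPKM minimum of 1 gave 346, 287, and 263, and voom on the recovered reads 883, 823, and 763. Leaving out 1 mouse put the median difference of the motile cilia genes at 0.20 to 0.36, -0.12 to 0.07, and 0.10 to 0.36, the 0.10 being without feb mouse 1.

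Foxj1, with differences near 0, changed sign. Without 1 mouse it ranged from -0.21 to 0.21, -0.11 to 0.15, and -0.23 to 0.19 in the 3 comparisons, and it was 0.0036 for feb with ICH under quantile normalization. Ccdc153 ranged from -0.0728 to 0.352 for ICH with sham and from -0.0934 to 0.478 for feb with ICH, and Tmem212 from -0.440 to 0.0697 for feb with sham. The causes were not tested. The differences of Rsph1, Dnah5, Cfap54, Ccdc40, Cfap44, Cfap45, and Tekt4 that were among the lowest p-values kept their sign in each alternative run.

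Same-numbered mice did not deviate together (correlations of -0.127 to 0.019), so the numbers were not taken as pairs. With the replicate block 0, 1, and 1 motile cilia genes and 717, 684, and 615 genes in all were called. Tmem212, at 3 to 11 reads per mouse, had a 95% interval as wide as -1.18 to 0.21.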
